A study of Mus musculus with 4 samples.

Results

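The bone morphogenetic protein (BMP) genes examined here were 2 ligands (Bmp2 and Bmp4), 4 secreted inhibitors (Grem1, Fst, Chrdl1 and Sostdc1) and 3 target genes (Id1, Id3 and Id4). They were chosen by gene symbol as a family, 9 of the 32285 genes listed, and were followed across marker-gated stromal cell types and the 4 libraries of the series. BMPs are secreted ligands of the TGF-beta superfamily that bind paired type I and type II receptor kinases, which phosphorylate Smad1 and Smad5. The Smads enter the nucleus with Smad4 and activate targets, of which the Id genes, dominant-negative helix-loop-helix regulators, are the best known. Secreted inhibitors such as gremlin and chordin-like proteins bind BMPs outside the cell and keep them from their receptors, and gremlin 1 is known as a product of fibroblastic reticular cells, the fibroblasts that build the scaffold of lymph nodes.

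Droplet-based single-cell RNA sequencing counted transcript 3′ ends by unique molecular identifiers (UMIs) in live CD45- CD31- cells of axillary, brachial and inguinal lymph nodes, taken from female C57BL/6 mice aged 12 weeks. Notch2 cKO 1 came from Notch2 fl/fl mice that also carried Ccl19-Cre and the R26R-EYFP reporter, and control 1 from mice with Ccl19-Cre and R26R-EYFP alone, non-littermates of batch 1 with 6 mice pooled per library. Notch2 cKO 2 came from Notch2 fl/fl mice with Ccl19-Cre and control 2 from their Notch2 fl/fl littermates without Cre, batch 2 with 3 mice pooled per library. The Ccl19 promoter drives Cre in lymph node reticular cells, so deletion is limited to cells with a history of that promoter, and control 1 has Cre without the floxed allele whereas control 2 has the floxed allele without Cre. The series asks, by its title, how Notch2 takes part in fibroblast specialization and in niches of T cells.

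The Notch2 cKO libraries held 8491 and 13452 barcodes and the control libraries 9891 and 18482, with median UMIs of 2834 and 7243 in Notch2 cKO and 2040 and 5787 in control. Any pair of libraries shared 21 to 57 barcodes, at most 0.546% of the smaller library. Cells were gated by UMIs of marker genes, none of which is a BMP gene described here, and fibroblast-gated cells numbered 7564 and 10616 in Notch2 cKO and 8437 and 13594 in control. T-zone-gated cells, defined by Ccl21a, a chemokine that guides T cells, numbered 3760 and 5041 in Notch2 cKO and 4158 and 4268 in control. They made up 49.7% and 47.5% of fibroblast-gated cells in Notch2 cKO against 49.3% and 31.4% in control, so control 2 stood apart. Levels are given as CPM, the summed UMIs of a gene scaled to the UMIs of all genes in the gated cells of a library. Adventitial gates held 149 to 364 cells per library, Cxcl9 gates 162 to 665 and medullary-type gates 275 to 961. Marginal gates held only 37 (Notch2 cKO 1) and 27 (control 1) cells in batch 1, and perivascular gates 18 in each library of batch 1. T-zone markers (6 genes) summed in those perivascular-gated cells to 4633 (Notch2 cKO 1) and 12890 (control 1) CPM, against 2039 (Notch2 cKO 2) and 1872 (control 2) CPM in batch 2. In T-zone-gated cells all 6 were detected, at 16900 and 21942 CPM in Notch2 cKO and 23859 and 24052 CPM in control. A gate is a range of a marker score and not a cell type, and 612 to 867 cells per library lay within 20% of the T-zone threshold.

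Notch2 (ENSMUSG00000027878, mm10 chromosome 3, 98013527 to 98150361), the targeted receptor gene, had 15.2 and 37.1 CPM in T-zone-gated cells of Notch2 cKO against 42.9 and 57.9 CPM in those of control. Its log2 fold change, Notch2 cKO over control, was -1.10 (SE 0.21, 2 libraries per group; adjusted p = 0.00986 by edgeR's quasi-likelihood test, Benjamini-Hochberg method). It was -0.85 in all fibroblast-gated cells (edgeR adjusted p = 0.0530). The sources used here do not place the floxed exons, so 3′-end counts of Notch2 are no check of the deletion, and 2 genes on the same strand overlap it.

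Among fibroblasts, the BMP genes divided the gates, with Bmp4 and Grem1 high and the Id genes and Fst low in T-zone-gated cells. Other fibroblasts, as a reference, are the remaining named gates with the fibroblasts outside every named gate. T-zone-gated cells are thus a large part of the reference of each other gate. The set labelled other fibroblast in the figures is the fibroblasts outside every named gate alone. Against the other fibroblast-gated cells of the same libraries, T-zone-gated cells were higher for 2 of the 9 genes and lower for 5, beside 15.8% of all 15282 genes tested that were higher and 15% that were lower (edgeR, library as a block). Adventitial-gated cells were higher for Fst and Bmp2 and lower for 4, beside 13.3% and 18.6% of all genes. Cxcl9-gated cells were higher for 4 and lower for 4 (4.18% and 3.11% of all genes), marginal-gated cells higher for 3 and lower for 4 (5.29% and 9.91%), and medullary-type-gated cells higher for 6 and lower for 3 (10.5% and 12.9%). With gate thresholds doubled, Bmp2, Id3, Sostdc1 and Id1 no longer passed in the Cxcl9 gate (edgeR adjusted p = 0.117, 0.0966, 0.268 and 0.0767), nor did Id3 and Grem1 in the marginal gate (0.482 and 0.0619), while Chrdl1 and Id4 passed as lower in the adventitial gate (0.00526 and 0.00744). With thresholds halved, Bmp2 and Id1 did not pass in the Cxcl9 gate (edgeR adjusted p = 0.808 and 0.767, with Id1 turned to 0.12), nor Bmp2 and Sostdc1 in the marginal gate (0.15003 and 0.0674) or Id1 in the adventitial gate (0.0858). Scaling by library totals ended the Cxcl9 call of Bmp2 (edgeR adjusted p = 0.0955). The T-zone and medullary-type calls held under these 3 settings. Mean Id1 among fibroblasts was highest in the marginal and medullary-type gates. The plot of levels by gate and library shows these patterns.

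**Figure D1:**
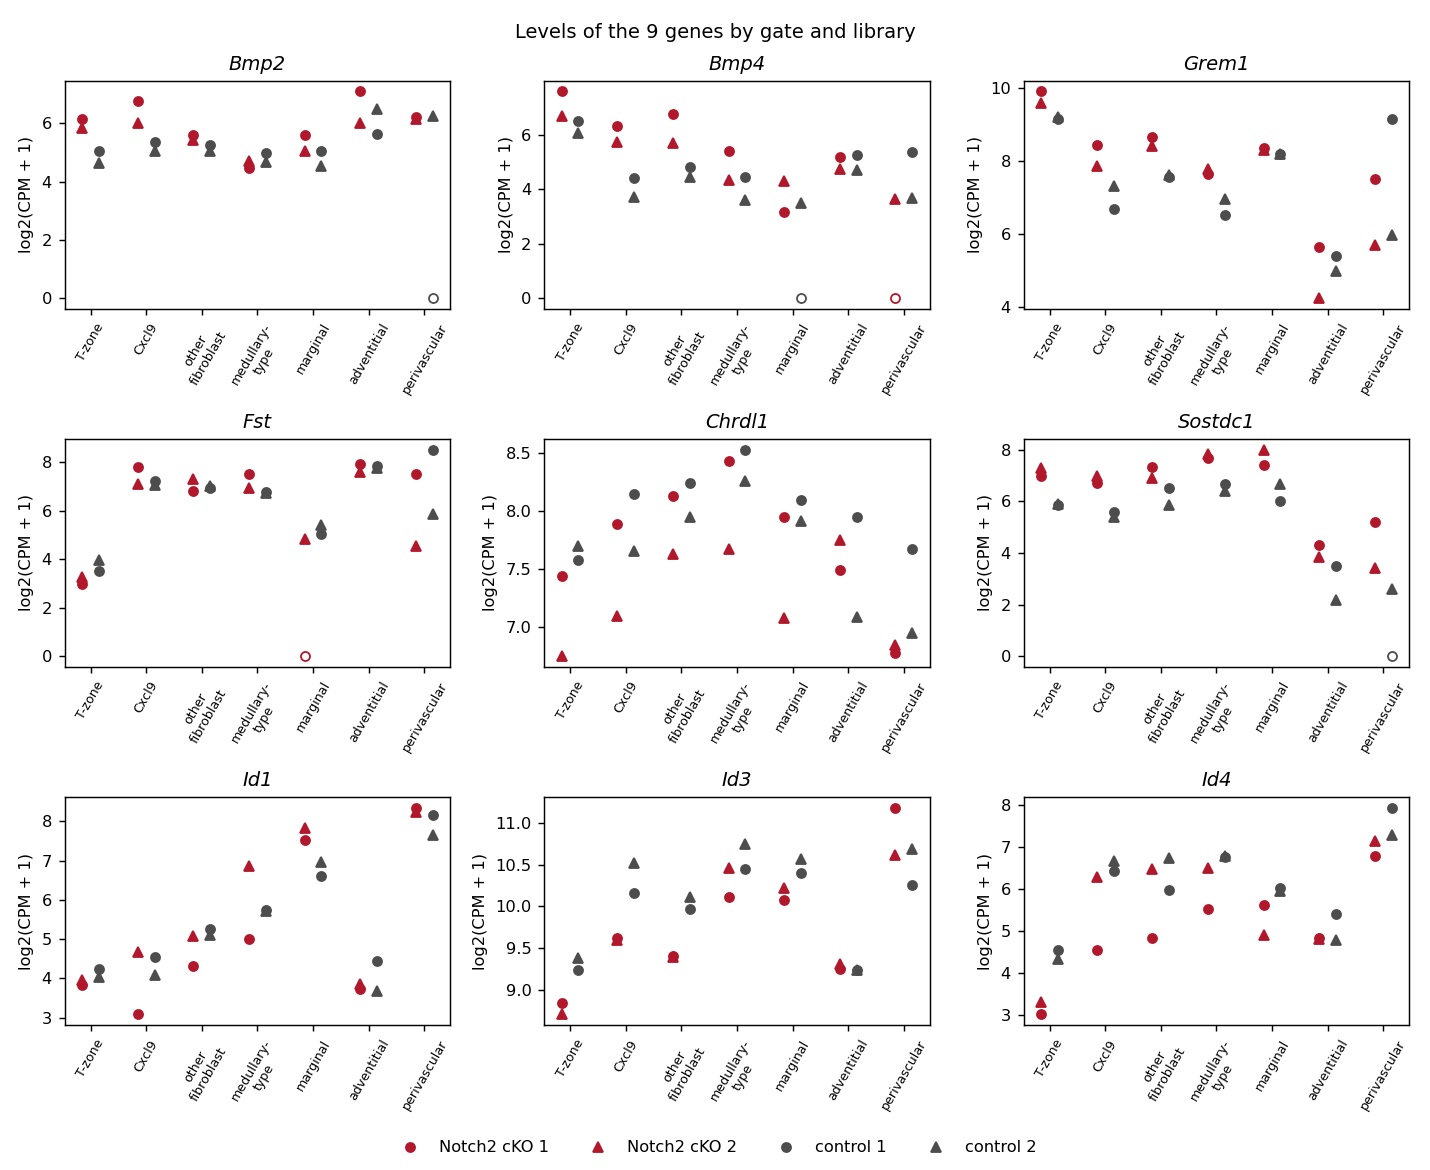
Level of each of the 9 BMP genes (log2 of CPM + 1) in 7 gates, with Notch2 cKO libraries in red left of control libraries in grey, circles for batch 1, triangles for batch 2 and open symbols for a gene listed at 0. By gate mean, Grem1 was highest in the T-zone gate (569 to 956 CPM) and lowest in the adventitial gate (17.9 to 49.3 CPM), and Fst showed the reverse (6.94 to 14.4 and 193 to 243 CPM). Single values from few cells reached past these ranges for Fst, at 0 CPM in marginal-gated Notch2 cKO 1 and 366 CPM in perivascular-gated control 1. Grem1 had 569 CPM in perivascular-gated control 1.

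Of the ligands, Bmp4 (ENSMUSG00000021835, chromosome 14, 46383520 to 46390669, minus strand), which patterns many embryonic organs, was the one higher in the T-zone gate than in other fibroblasts. Its levels there were 195 and 103 CPM in Notch2 cKO and 90.4 and 66.7 CPM in control, and its log2 difference from other fibroblasts was 1.53 (SE 0.14, edgeR adjusted p = 0.00039, higher in 4 of 4 libraries). Medullary-type, marginal, adventitial and Cxcl9 gates lay below other fibroblasts for Bmp4, with log2 differences of -1.87, -2.18, -1.42 and -1.12, each lower in 4 of 4 libraries and past the test. That reference holds the T-zone-gated cells. Beside fibroblasts outside every named gate, adventitial Bmp4 was higher in control (37.7 and 25.1 against 27.6 and 21.1 CPM) and lower in Notch2 cKO (36.0 and 25.8 against 107 and 51.2 CPM). Medullary-type and marginal gates were lower in each library, and the Cxcl9 gate in all but Notch2 cKO 2 (52.1 CPM). Bmp2 (ENSMUSG00000027358, chromosome 2, 133552159 to 133562885, plus strand), an osteogenic and cardiogenic ligand, instead had its highest mean in the adventitial gate. There it stood at 135 and 63.9 CPM in Notch2 cKO and 48.0 and 88.2 CPM in control, 0.92 above other fibroblasts on the log2 scale (SE 0.20, edgeR adjusted p = 0.00309). In the T-zone gate Bmp2 differed from other fibroblasts by 0.09 (edgeR adjusted p = 0.700), higher in 2 of 4 libraries. For both ligands the ranges of neighbouring gates overlapped along the whole order of levels (6 of 6 neighbouring pairs).

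Of the inhibitors, Grem1 (ENSMUSG00000074934, chromosome 2, 113746164 to 113758646, minus strand), a cystine-knot antagonist of BMP2 and BMP4, had 956 and 771 CPM in T-zone-gated cells of Notch2 cKO and 569 and 587 CPM in those of control. The T-zone gate lay 1.62 above other fibroblasts on the log2 scale (SE 0.09, edgeR adjusted p = 6.47e-05), and the adventitial gate 4.02 below them (log2 difference -4.02, SE 0.23, edgeR adjusted p = 1.99e-08). The T-zone range did not overlap the range of the marginal gate, next in order at 288 to 327 CPM. Fst (ENSMUSG00000021765, chromosome 13, 114452290 to 114458951, minus strand), the activin-binding protein follistatin, had 6.94 and 8.69 CPM in T-zone-gated cells of Notch2 cKO and 10.3 and 14.4 CPM in those of control. It stood at 243 and 193 CPM in adventitial-gated cells of Notch2 cKO and 226 and 216 CPM in those of control. The log2 difference of Fst from other fibroblasts was -3.65 in the T-zone gate (edgeR adjusted p = 5.81e-05) and 1.75 in the adventitial gate (edgeR adjusted p = 4.2e-07).

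Sostdc1 (ENSMUSG00000036169, chromosome 12, 36314139 to 36318452, plus strand), which binds BMPs and modulates Wnt signalling, was broad among reticular gates and low in the adventitial gate, where it had 18.9 and 13.4 CPM in Notch2 cKO and 10.3 and 3.53 CPM in control. The adventitial counts were 20 and 12 UMIs in Notch2 cKO and 3 and 9 UMIs in control. The log2 difference of the adventitial gate from other fibroblasts was -3.47 (SE 0.21, edgeR adjusted p = 2.79e-08), and that of the medullary-type gate 0.62 (edgeR adjusted p = 6.09e-05). Chrdl1 (ENSMUSG00000031283, chromosome X, 143285674 to 143394262, minus strand), a chordin-like BMP antagonist, was the most even inhibitor, with gate means between 137 and 306 CPM and overlapping ranges in 6 of 6 neighbouring pairs. Its log2 difference from other fibroblasts was 0.63 in the medullary-type gate and -0.55 in the T-zone gate, both past the edgeR test (adjusted p = 4.85e-05 and 0.00813).

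The Id genes formed the other side of the pattern. Id1 (ENSMUSG00000042745, chromosome 2, 152736251 to 152737410, plus strand) stood at 183 and 228 CPM in marginal-gated cells of Notch2 cKO and 96.1 and 125 CPM in those of control, against 13.1 to 17.7 CPM in T-zone-gated cells of all libraries. Low Id1 was shared by the adventitial gate (11.8 to 20.6 CPM) and the Cxcl9 gate (7.44 to 24.4 CPM), whose ranges overlapped the T-zone range. The marginal gate lay 2.72 above other fibroblasts (SE 0.14, edgeR adjusted p = 9.99e-19) and the medullary-type gate 1.39 above them (edgeR adjusted p = 0.000101), while the T-zone gate differed by -1.31 (edgeR adjusted p = 0.00309). Id3 (ENSMUSG00000007872, chromosome 4, 136143497 to 136145755, plus strand) had gate means from 537 CPM in the T-zone gate to 1406 CPM in the medullary-type gate among fibroblasts, with log2 differences of -0.76 and 1.07 from other fibroblasts. Id4 (ENSMUSG00000021379, chromosome 13, 48261228 to 48266026, plus strand) was lowest in the T-zone gate at 7.02 to 22.1 CPM, a range below that of the adventitial gate, next in order at 26.7 to 41.1 CPM. The T-zone difference of Id4 was -2.31 on the log2 scale (SE 0.21, edgeR adjusted p = 0.000444, lower in 4 of 4 libraries). Perivascular-gated cells of batch 2, outside the fibroblast gate, had 299 (Notch2 cKO 2) and 202 (control 2) CPM of Id1, above the value of every fibroblast gate in the same library. The counts behind the T-zone levels of Id4 were 92 and 489 UMIs in Notch2 cKO and 230 and 727 UMIs in control. Leukocyte-gated cells, which are not expected to express Id4, had 9.59 (Notch2 cKO 2) and 13.8 (control 2) CPM. This level is taken as a background, and its source was not tested. T-zone-gated Id4 in Notch2 cKO 2, at 8.85 CPM, was not above it, and in control 2 it stood at 19.0 CPM.

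Promoters of Bmp4 and Grem1 (higher in the T-zone gate than in other fibroblasts) and of Id3 and Id4 (lower there), the members with an entry, are shown because a promoter is where Smad and Notch effectors can bind. They are 4 of the 9 members (RefSeq, GRCm38.p6, 250 bases before to 50 after the start, 5′ to 3′ on the gene's strand); the other 5 are Bmp2, Fst, Chrdl1, Sostdc1 and Id1. The windows are chr14:46390620-46390919 (minus strand) for Bmp4, chr2:113758599-113758898 (minus) for Grem1, chr4:136143572-136143871 (plus) for Id3 and chr13:48260866-48261165 (plus) for Id4. The start is that of the RefSeq entry, which can differ from the gene start given above. The Id3 window lies inside the gene span given above, and the Id4 window ends before its gene start. Capitals mark GGCGCC, a GC-rich element bound by Smad1 and Smad5, and TGGGAA or its complement TTCCCA, the core bound by RBPJ, the DNA-binding partner of Notch, and no base was shared by matches of both motifs.
Bmp4: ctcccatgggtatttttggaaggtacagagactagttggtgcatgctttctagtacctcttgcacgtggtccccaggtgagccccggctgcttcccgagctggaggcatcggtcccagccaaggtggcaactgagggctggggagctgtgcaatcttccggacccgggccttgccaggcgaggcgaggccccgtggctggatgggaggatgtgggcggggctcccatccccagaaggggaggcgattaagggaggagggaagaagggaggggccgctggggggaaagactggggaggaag
Grem1: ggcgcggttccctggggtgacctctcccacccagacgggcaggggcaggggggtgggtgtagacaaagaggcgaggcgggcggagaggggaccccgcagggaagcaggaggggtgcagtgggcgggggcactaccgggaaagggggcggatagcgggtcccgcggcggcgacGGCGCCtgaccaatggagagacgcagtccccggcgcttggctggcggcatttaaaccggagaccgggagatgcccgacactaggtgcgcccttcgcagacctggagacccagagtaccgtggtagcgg
Id3: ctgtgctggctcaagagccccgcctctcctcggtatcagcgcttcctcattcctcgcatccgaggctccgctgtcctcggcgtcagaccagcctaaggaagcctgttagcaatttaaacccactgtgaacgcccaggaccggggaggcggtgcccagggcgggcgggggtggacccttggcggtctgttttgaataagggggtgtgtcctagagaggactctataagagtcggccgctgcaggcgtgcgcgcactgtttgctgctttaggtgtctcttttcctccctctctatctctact
Id4: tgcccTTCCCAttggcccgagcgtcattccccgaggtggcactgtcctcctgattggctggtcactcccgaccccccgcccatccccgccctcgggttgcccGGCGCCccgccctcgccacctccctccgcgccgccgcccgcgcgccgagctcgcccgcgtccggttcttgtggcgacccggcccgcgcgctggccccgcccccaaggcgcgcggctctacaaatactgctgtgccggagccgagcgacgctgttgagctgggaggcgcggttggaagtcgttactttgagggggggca
GGCGCC, which is its own reverse complement, occurred once in the Grem1 window, 78 to 73 bases upstream of the start, and once in the Id4 window, 148 to 143 bases upstream. It occurred in 11.9% of the 32851 promoters searched. TGGGAA, searched on both strands, occurred in the Id4 window alone of the 4, as TTCCCA at 245 to 240 bases upstream, and in 25.6% of all promoters. GTCTAGAC, the palindromic Smad binding element, was in none of the 4 windows and in 0.213% of all promoters. A match is a description of letters and no evidence of binding.

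In T-zone-gated cells Bmp2 and Sostdc1 rose and Id4 fell in Notch2 cKO. Thus 2 of the 9 genes were called higher and 1 lower, beside 2.77% of the 15469 genes tested that were called higher and 2.52% that were called lower (edgeR quasi-likelihood test, batch as a term, Benjamini-Hochberg threshold 0.05). All 9 members passed the filter on low counts in every gate. Their median log2 fold change in this gate was -0.31, beside 0.03 over all genes tested. The CPM of all 9 genes did not overlap between the groups, 4 higher and 5 lower in Notch2 cKO, and such separation was seen upwards in 18.1% and downwards in 10.7% of all genes.

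Bmp2 had 70.4 and 56.1 CPM in T-zone-gated cells of Notch2 cKO against 32.4 and 23.7 CPM in those of control (63.3 ± 10.1 and 28.0 ± 6.11 CPM, mean ± SD, n = 2 each). Both Notch2 cKO libraries lay above both controls, and the log2 fold change was 1.13 (SE 0.19, edgeR adjusted p = 0.00345), 1.15 in batch 1 and 1.15 in batch 2. Sostdc1 had 124 and 157 CPM in Notch2 cKO against 56.6 and 58.9 CPM in control, again without overlap (140 ± 23.5 and 57.8 ± 1.62 CPM, SD, n = 2 each). Its log2 fold change was 1.22 (SE 0.20, edgeR adjusted p = 0.0036), with 1.16 in batch 1 and 1.32 in batch 2. Id4, with 7.02 and 8.85 CPM in Notch2 cKO against 22.1 and 19.0 CPM in control (7.93 ± 1.30 and 20.6 ± 2.25 CPM, SD, n = 2 each), was the member that fell, by 1.42 on the log2 scale (SE 0.22, edgeR adjusted p = 0.0024), with -1.62 in batch 1 and -1.19 in batch 2.

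The other 6 members did not pass in the T-zone gate. Bmp4, with the levels given above, had a log2 fold change of 0.81 (SE 0.23, edgeR adjusted p = 0.0681), larger in batch 1 (1.14) than in batch 2 (0.53). Grem1 had 0.52 (SE 0.29, edgeR adjusted p = 0.465). Fst had -0.72 (edgeR adjusted p = 0.111) and a UMI in 0.999% to 1.81% of thinned cells. In leukocyte-gated cells Fst had 4.11 ± 5.81 CPM in Notch2 cKO and 4.39 ± 6.21 CPM in control (mean ± SD, n = 2 each). The T-zone levels of Fst were thus near that background. Chrdl1, with 172 and 106 CPM in Notch2 cKO and 190 and 207 CPM in control, had -0.61 (edgeR adjusted p = 0.287), and its value was -0.11 in batch 1 and -1.06 in batch 2. Id3 had 460 and 418 CPM in Notch2 cKO and 604 and 667 CPM in control, a log2 fold change of -0.59 (SE 0.27, edgeR adjusted p = 0.334). Id1 had 13.1 and 14.4 CPM in Notch2 cKO and 17.7 and 15.3 CPM in control (log2 fold change -0.31, edgeR adjusted p = 0.588).

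**Figure D2:**
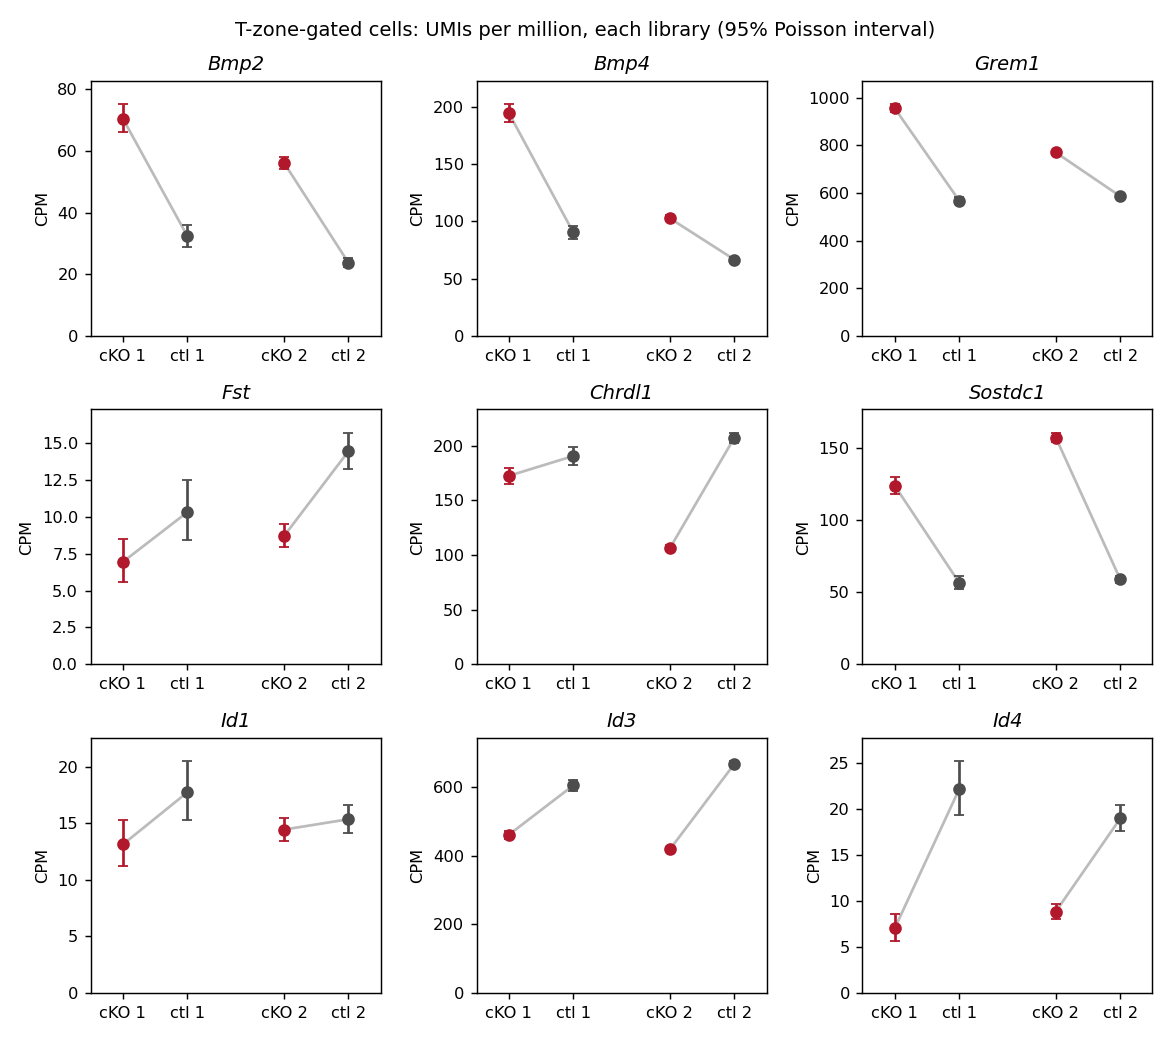
CPM of the 9 BMP genes in T-zone-gated cells of each library, with Notch2 cKO (cKO, red) left of its control (ctl, grey) in each batch, bars for 95% Poisson intervals (counting error only) and a line joining the libraries of a batch. Bmp2, Bmp4, Grem1 and Sostdc1 lay higher and Fst, Chrdl1, Id1, Id3 and Id4 lower in both Notch2 cKO libraries, and Bmp2, Sostdc1 and Id4 passed the test.

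These calls rest on the batch term. Without the batch term (no replicate block) the log2 fold changes were 1.13 for Bmp2, 1.22 for Sostdc1 and -1.43 for Id4, with edgeR adjusted p of 0.822, 0.512 and 0.413, and no gene passed in the edgeR test. Leaving out Notch2 cKO 1, control 1, Notch2 cKO 2 or control 2 leaves 1 library in a group and assumes that it varies like the others. In every gate these fits also left out the batch term, so they cannot show whether the calls need all 4 libraries. In the T-zone gate the log2 fold changes kept their direction, at 0.85 to 1.39 for Bmp2, 1.09 to 1.31 for Sostdc1 and -1.61 to -1.30 for Id4. With batch as a term, all 3 passed under each of 8 other settings, DESeq2 included.

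Depth differed between the libraries, so shares of T-zone-gated cells with at least 1 UMI were compared after thinning each cell to 2000 UMIs, which left out 458 and 53 cells of Notch2 cKO and 1338 and 63 of control. Bmp2 was then found in 11.9% and 8.32% of cells in Notch2 cKO and 5.89% and 4.57% in control. Sostdc1 was found in 20.3% and 24.7% in Notch2 cKO and 7.70% and 10.1% in control, and Grem1 in 70.7% and 64.0% against 53.9% and 49.6%. The 95% exact binomial intervals, which cover counting error only, were 19.0% to 21.7% and 23.5% to 25.96% for Sostdc1 in Notch2 cKO and 6.74% to 8.74% and 9.23% to 11.1% in control. Unthinned shares of Sostdc1 were 28.1% and 58.5% in Notch2 cKO and 10.8% and 27.7% in control. In leukocyte-gated cells of batch 2, thinned alike, Sostdc1 was found in 2.39% (Notch2 cKO 2) and 1.78% (control 2) and Bmp2 in 1.20% and 1.07%, at unthinned median depths of 3387 and 3702 UMIs, against 10442 and 8186 UMIs in T-zone-gated cells of the same libraries. Id4 was found in 1.79% and 1.42% of T-zone-gated cells in Notch2 cKO and 3.83% and 3.42% in control, beside 1.99% (Notch2 cKO 2) and 2.14% (control 2) in leukocyte-gated cells of batch 2, so the share in Notch2 cKO 2 was not above background. Batch 1 left 29 (Notch2 cKO 1) and 11 (control 1) leukocyte-gated cells after thinning, too few to set a background there. Id1 was found in 2.09% and 2.77% of T-zone-gated cells in Notch2 cKO and 3.48% and 2.54% in control, and in batch 2 these shares were not above the 5.18% (Notch2 cKO 2) and 2.49% (control 2) of leukocyte-gated cells beyond counting error. Grem1 was found more often in cells with a Bmp4 UMI than in cells without one in each of the 4 libraries, as a description with no test. It was present in 73.1% and 68.4% of Bmp4-positive and 69.7% and 63.0% of Bmp4-negative T-zone-gated cells in Notch2 cKO. In control it was present in 61.2% and 56.7% of Bmp4-positive and 52.5% and 48.6% of Bmp4-negative cells.

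Across all fibroblast-gated cells Bmp4 and Sostdc1 rose and Id4 fell, 2 of the 9 genes higher and 1 lower, beside 1.49% and 0.936% of the 17634 genes tested. The groups did not overlap for 4 genes that were higher and 3 that were lower in Notch2 cKO, beside 15.7% and 8.89% of all genes. Bmp4 had 148 and 78.0 CPM in Notch2 cKO against 61.8 and 37.7 CPM in control. No control library reached a Notch2 cKO library, and the log2 fold change was 1.11 (SE 0.19, edgeR adjusted p = 0.0172). Sostdc1 had 131 and 160 CPM in Notch2 cKO against 68.9 and 59.5 CPM in control (log2 fold change 1.13, edgeR adjusted p = 0.0192). Id4 had 15.9 and 34.8 CPM in Notch2 cKO against 41.5 and 65.5 CPM in control (log2 fold change -1.19, edgeR adjusted p = 0.0125). Bmp2 had 67.3 and 50.2 CPM in Notch2 cKO and 34.4 and 29.3 CPM in control, 0.82 on the log2 scale and just short of the threshold (edgeR adjusted p = 0.0546). Grem1 differed by 0.75 (edgeR adjusted p = 0.217), Id3 by -0.67 (edgeR adjusted p = 0.365), Chrdl1 by -0.51, Fst by -0.25 and Id1 by -0.24.

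The share of T-zone-gated cells in these sums differed in batch 2, at 47.5% in Notch2 cKO 2 and 31.4% in control 2. With T-zone-gated cells taken out of the sums (an alternative added after the data were seen) the log2 fold changes were 1.32 for Bmp4, 1.03 for Sostdc1 and -0.91 for Id4, and none passed (edgeR adjusted p = 0.123, 0.189 and 0.272). None passed when counts were scaled by library totals alone or without the batch term. Leaving out any of the 4 libraries, and with it the batch term, gave log2 fold changes of 0.50 to 1.62 for Bmp4, 0.91 to 1.29 for Sostdc1 and -1.73 to -0.74 for Id4. With the batch term, Bmp4 did not pass under the stricter cell filter (edgeR adjusted p = 0.0633), nor did Sostdc1 with gate thresholds doubled. DESeq2 with the batch term called all 3, and Bmp2 and Grem1 as well. In bulk sums of a gate, fewer cells with a transcript and less transcript per cell cannot be told apart.

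**Figure D3:**
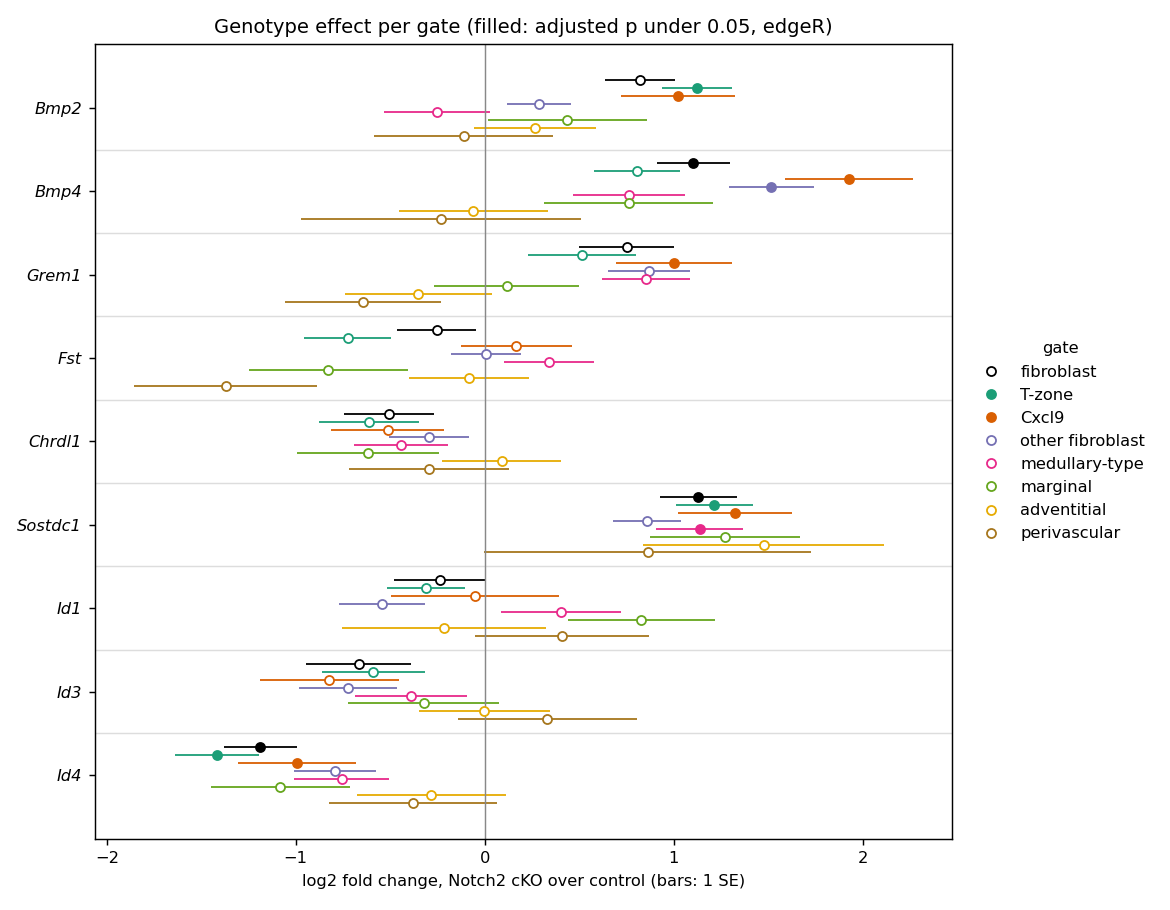
Log2 fold change, Notch2 cKO over control, of each BMP gene in 8 sets of gated cells (points, 1 colour per gate; bars, 1 SE; filled where the edgeR adjusted p was under 0.05; 2 libraries per group). Sostdc1 was positive in all 8 sets, between 0.86 and 1.48, and Id4 negative in all 8, between -1.42 and -0.28.

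Cxcl9-gated cells, reticular cells rich in interferon-induced chemokines, held the most calls among the 9 genes, 4 higher (Bmp2, Bmp4, Grem1 and Sostdc1) and 1 lower (Id4), beside 1.98% and 1.22% of the 8556 genes tested. Bmp4 had 80.0 and 52.1 CPM in Notch2 cKO against 20.2 and 12.2 CPM in control, from 43 and 64 UMIs in Notch2 cKO and 10 and 57 UMIs in control. Its log2 fold change was 1.93 (SE 0.34, edgeR adjusted p = 1.97e-06), with 1.91 in batch 1 and 1.77 in batch 2. Sostdc1 had 104 and 126 CPM in Notch2 cKO against 46.5 and 41.6 CPM in control (log2 fold change 1.32, SE 0.30, edgeR adjusted p = 0.000907). Both Notch2 cKO libraries lay above both controls for 4 of the 9 genes, these among them, and below both for 2. The share of all genes so separated was not computed in this gate. Grem1 had 348 and 232 CPM in Notch2 cKO against 101 and 158 CPM in control (log2 fold change 1.00, edgeR adjusted p = 0.0361), 1.76 in batch 1 and 0.32 in batch 2. Bmp2 had 108 and 62.7 CPM in Notch2 cKO against 40.4 and 32.1 CPM in control (log2 fold change 1.02, edgeR adjusted p = 0.0251). Id4 had 22.3 and 77.3 CPM in Notch2 cKO against 84.8 and 101 CPM in control (log2 fold change -0.99, edgeR adjusted p = 0.0448), -1.89 in batch 1 from 12 UMIs in Notch2 cKO 1 and -0.60 in batch 2. With DESeq2 and batch as a term none of the 5 passed, and with the gate threshold doubled Bmp4 alone did, so the calls in this small gate depend on the method. Leaving out any library, and with it the batch term, gave log2 fold changes of 1.58 to 2.37 for Bmp4, 1.19 to 1.35 for Sostdc1, 0.64 to 1.55 for Bmp2, 0.65 to 1.42 for Grem1 and -2.11 to -0.45 for Id4.

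Fibroblasts outside every named gate and medullary-type-gated cells each held 1 call. In ungated fibroblasts Bmp4 had 107 and 51.2 CPM in Notch2 cKO against 27.6 and 21.1 CPM in control (log2 fold change 1.52, SE 0.23, edgeR adjusted p = 0.0143), the 1 member called beside 1.19% of 15144 genes called higher and 0.489% lower. Grem1 there had 399 and 340 CPM in Notch2 cKO and 187 and 193 CPM in control (log2 fold change 0.87, edgeR adjusted p = 0.103). In medullary-type-gated cells Sostdc1 had 202 and 225 CPM in Notch2 cKO against 102 and 83.9 CPM in control (log2 fold change 1.14, SE 0.23, edgeR adjusted p = 0.0371), the 1 member called beside 0.274% of 11299 genes called higher and 0.15% lower. Grem1 in the medullary-type gate had 198 and 217 CPM in Notch2 cKO and 91.1 and 124 CPM in control, without overlap and short of the test (log2 fold change 0.86, edgeR adjusted p = 0.190). Both calls were lost without the batch term. With any library left out as well, Bmp4 in ungated fibroblasts ranged from 0.86 to 2.16 and Sostdc1 in medullary-type cells from 0.94 to 1.26 on the log2 scale. With the batch term, Bmp4 passed under 8 of 8 other settings and Sostdc1 under 4 of 8, and DESeq2 did not call Sostdc1.

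In adventitial-gated, marginal-gated and perivascular-gated cells edgeR called none of the 9 genes, with 1, 4 and 1 of them at an unadjusted p under 0.05. At that unadjusted p the adventitial gate had 139 genes higher and 198 lower of 9090. The marginal gate had 235 and 373 of 10425, and the perivascular gate 40 and 194 of 9905. After adjustment these gates called 0.044% of 9090 genes higher and 0.088% lower, 0.432% and 0.681% of 10425, and 0.0101% and 0.0404% of 9905. DESeq2 called none of the 9 in the adventitial and marginal gates, and scaling by library totals called Sostdc1 in the marginal gate. Sostdc1 in marginal-gated cells had 167 and 256 CPM in Notch2 cKO and 64.1 and 102 CPM in control, 21 and 839 UMIs against 4 and 375 (log2 fold change 1.27, SE 0.40, edgeR adjusted p = 0.0936). Id1 there had a log2 fold change of 0.83 (SE 0.39, edgeR adjusted p = 0.701). In the adventitial gate Sostdc1 differed by 1.48 (SE 0.64, edgeR adjusted p = 1.00), on the few UMIs given above. Bmp2 in adventitial-gated cells was higher in Notch2 cKO 1 and lower in Notch2 cKO 2 than in the control of the same batch.

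**Figure D4:**
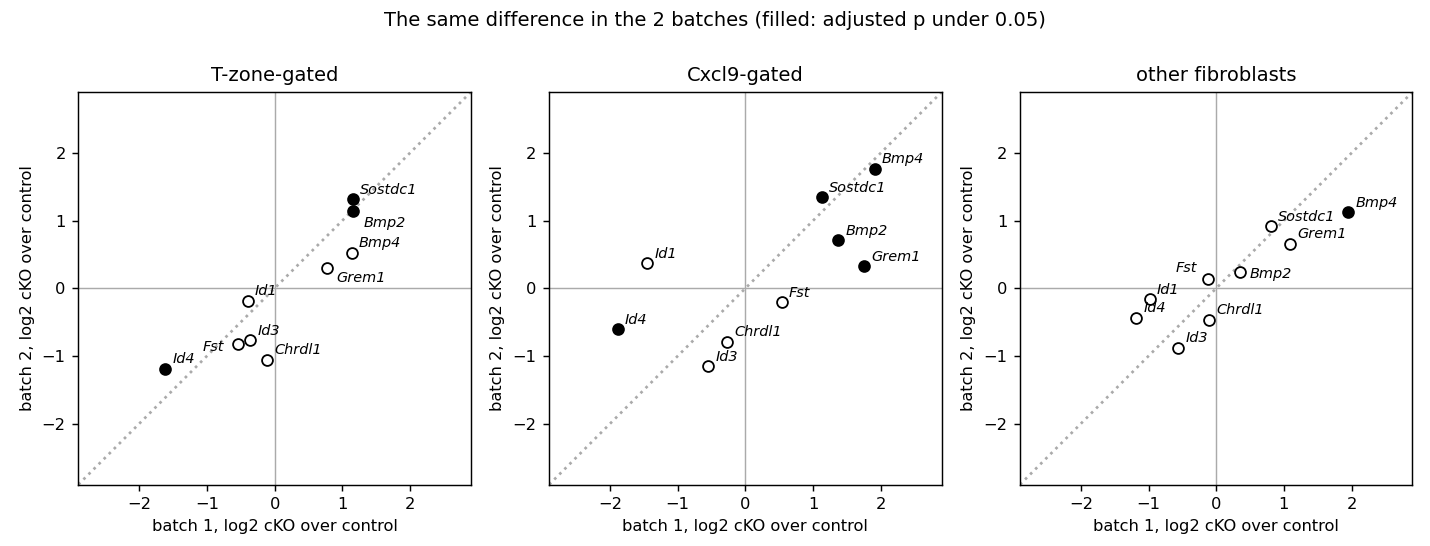
Within-batch log2 difference, Notch2 cKO over control, of the 9 BMP genes in batch 1 (x axis) and batch 2 (y axis) for 3 sets of fibroblasts; filled points passed the edgeR test and the dotted line marks equality. In the T-zone gate all 9 genes had the same sign in both batches, and in the Cxcl9 gate Fst and Id1 had opposite signs. Matching signs in the T-zone gate follow from the separation of the groups in CPM given above. The share of all genes with matching signs was not computed.

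Whether the genotype effect differed between gates was tested by the interaction of genotype and gate with the library as a block. For T-zone against adventitial-gated cells no member passed, beside 1.69% of 13800 genes that did. Of the 9 members, 6 had an unadjusted edgeR p under 0.05, beside 1086 of the 13800 genes. The difference was -1.20 for Id4 (SE 0.38, edgeR adjusted p = 0.0813) and 0.87 for Bmp2 (SE 0.31, edgeR adjusted p = 0.167), and that of Bmp2 passed when the gate thresholds were doubled (edgeR adjusted p = 0.0422). That comparison was planned, whereas those against the medullary-type, Cxcl9 and marginal gates were added and fitted without alternative settings. Against the medullary-type gate 3 of the 9 members passed, beside 2.34% of 14208 genes. The Bmp2 effect was higher in the T-zone gate by 1.33 (SE 0.23, edgeR adjusted p = 0.000176), where medullary-type-gated cells had 21.1 and 25.3 CPM of Bmp2 in Notch2 cKO and 30.7 and 24.6 CPM in control. The effect on Fst was lower in the T-zone gate by a log2 difference of -1.01 (edgeR adjusted p = 0.00299) and that on Id4 by -0.72 (edgeR adjusted p = 0.0405). T-zone levels of Fst, and of Id4 in Notch2 cKO 2, were near the leukocyte levels given above, which limits every interaction of these genes. Against the Cxcl9 gate 2 passed, Bmp4 at -1.20 (edgeR adjusted p = 0.000547) and Fst at -0.89 (edgeR adjusted p = 0.00164), beside 2.29% of 14132 genes. None passed in the edgeR test against the marginal gate, where Id1 differed by -1.07 (edgeR adjusted p = 0.187), beside 0.796% of 13695 genes. In that comparison 1 member had an unadjusted edgeR p under 0.05, beside 809 of the 13695 genes.

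Other genes of the pathway were followed as a list of 47 ligands, binders, receptors, Smads and targets. In T-zone-gated cells 37 were tested, 5 rose and none fell, beside 2.77% of all genes that were called higher and 2.52% lower, and their median log2 fold change was 0.04, beside 0.03 over all genes. Inhbb, the beta B subunit of activin and inhibin, had 50.04 and 37.4 CPM in Notch2 cKO against 4.14 and 6.08 CPM in control (log2 fold change 2.97, SE 0.27, edgeR adjusted p = 9.3e-05). Inhba, the beta A subunit, had 5.03 and 2.53 CPM in Notch2 cKO against 0.193 and 0.835 CPM in control (log2 fold change 2.35, SE 0.56, edgeR adjusted p = 0.0312). In control 1, with 10383768 UMIs in the gate, that level is fewer than 3 UMIs, so the size of the Inhba change is uncertain. Bmp3, an atypical ligand that restrains bone formation, had 101 and 92.7 CPM in Notch2 cKO against 45.6 and 34.3 CPM in control (log2 fold change 1.24, edgeR adjusted p = 0.00217). Of the binders, Nbl1, a relative of gremlin, had 42.8 and 34.1 CPM in Notch2 cKO against 6.45 and 9.63 CPM in control (log2 fold change 2.17, edgeR adjusted p = 0.000491). Bmper, which binds BMPs outside the cell, had 9.69 and 49.6 CPM in Notch2 cKO against 4.04 and 14.0 CPM in control (log2 fold change 1.53, edgeR adjusted p = 0.00161). For all 5 genes both Notch2 cKO libraries exceeded their own batch's control, but the groups overlapped for Bmper, whose level in Notch2 cKO 1 lay below that in control 2.

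**Figure D5:**
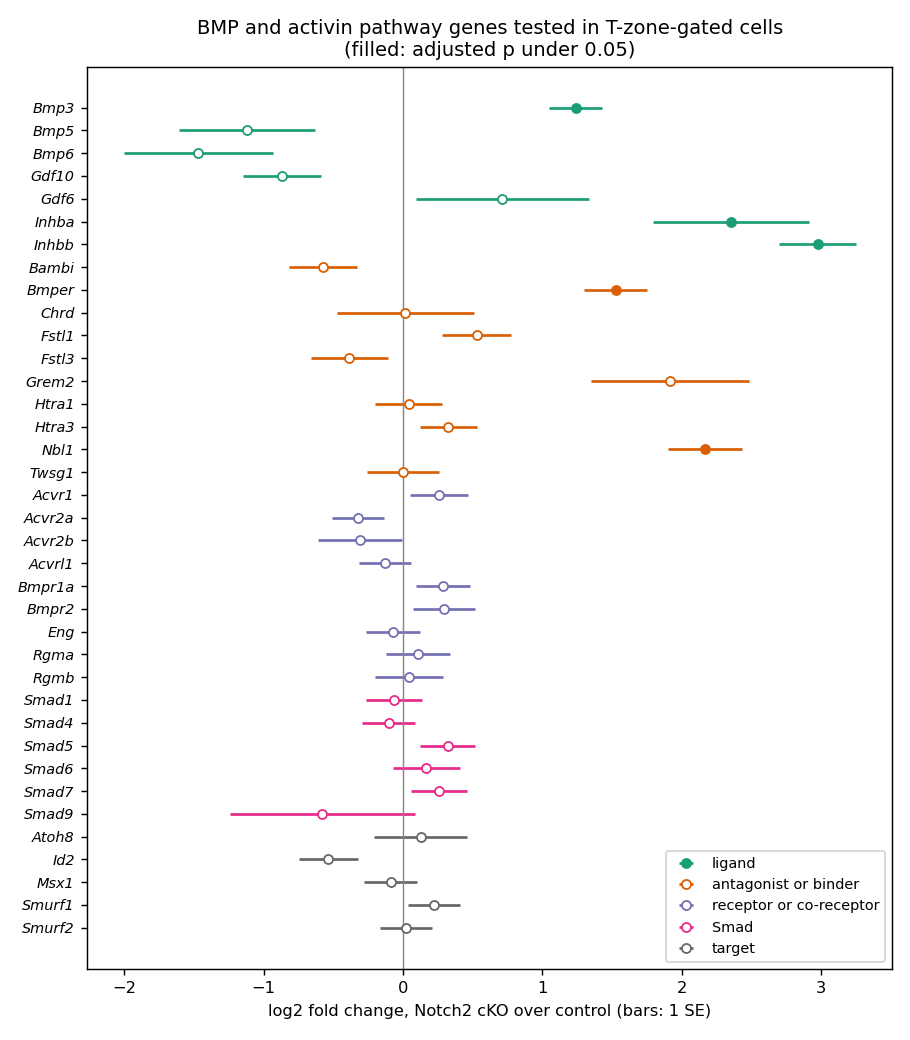
Log2 fold change, Notch2 cKO over control, with 1 SE, of the 37 listed BMP and activin pathway genes tested in T-zone-gated cells, coloured by role and filled where the edgeR adjusted p was under 0.05. Bmp3, Inhba, Inhbb, Bmper and Nbl1 passed, and none of the 9 receptors and co-receptors, 6 Smads and 5 targets tested did.

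The receptors and Smads did not pass in any gate. In the T-zone gate Bmpr1a and Bmpr2, a type I and the type II BMP receptor, had log2 fold changes of 0.29 each, Smad1 -0.06 and Smad5 0.32, and the inhibitory Smads Smad6 and Smad7 had 0.17 and 0.26. Id2, the remaining Id target on the list, had 72.5 and 55.1 CPM in Notch2 cKO and 87.0 and 88.9 CPM in control (log2 fold change -0.54, edgeR adjusted p = 0.221). In all fibroblast-gated cells 3 of 42 rose (Bmp3 1.43, Inhbb 3.09 and Bmper 1.30), beside 1.49% of all genes. In ungated fibroblasts 3 of 39 rose (Bmp3 1.65, Inhbb 2.79 and Bmper 1.23), beside 1.19% of all genes. In Cxcl9-gated cells 2 of 28 rose (Bmp3 1.61 and Nbl1 1.19), beside 1.98% of all genes. In marginal-gated cells 1 of 29 rose, Inhbb at 1.74, with control 1 at 0 UMIs, and 1 fell, the decoy receptor Bambi at -1.49, beside 0.432% of all genes called higher and 0.681% lower. None passed among the 29 tested in adventitial-gated, 28 in perivascular-gated and 30 in medullary-type-gated cells. Each log2 fold change in this paragraph is Notch2 cKO over control.

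Other quantities also differed between the libraries, not all of them by genotype. The summed level of 10 immediate early and dissociation genes, all detected, in T-zone-gated cells was 29126 and 19809 CPM in Notch2 cKO and 20635 and 20151 CPM in control, highest in Notch2 cKO 1. Markers of marginal reticular cells, 4 of 4 detected, summed to 278 and 834 CPM in T-zone-gated cells of Notch2 cKO and 186 and 412 CPM in those of control. Leukocyte markers summed to 12.6 and 27.1 CPM in Notch2 cKO and 9.53 and 17.1 CPM in control, with Cd3e at 0 in control 1, and endothelial markers to 5.57 and 24.9 CPM and 7.32 and 20.1 CPM, with Cldn5 at 0 in control 1. Their part in the differences of the BMP genes was not tested. Grem1 in leukocyte-gated cells, at 79.4 (Notch2 cKO 2) and 43.3 (control 2) CPM, was above 0 in cells not known to express it.

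Genes whose levels followed each member closely were sought over 28 sums (7 gates in 4 libraries, log2 of CPM + 1) among 6497 genes, as a description, since sums of 1 library share depth and gates share markers. Grem1 was followed by Clu (Pearson r 0.944), Dsc3 (0.943) and Bst1 (0.926), the last itself a marker of the T-zone list. Bmp4 was followed by Aqp1 (0.893), Jup (0.880) and N4bp2 (0.846), and Bmp2 by Shisa5 (0.916) and Eif2ak2 (0.910). Sostdc1 was followed by Mtss1 (0.878) and Vegfc (0.870), Fst by Shox2 (0.860), Twist1 (0.773) and Lamb2 (0.757), and Chrdl1 by C1ra (0.856), Selenop (0.839) and Cyp1b1 (0.772). Id1 and Id3 shared Cadm1 (0.871 and 0.856) among their closest genes, beside Ramp1 (0.882) and Bcam (0.864) for Id1 and Ano1 (0.859) and Ube2d2a (0.838) for Id3. Id4 was followed by Tiparp (0.810), Id3 (0.801) and Pqlc1 (0.794).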

How the data were processed

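UMI counts per gene and barcode of 4 droplet libraries were taken as deposited. The authors made these counts with Cell Ranger: per the file headers version 5.0.1 for batch 1 and 7.1.0 for batch 2. The submitters' processing notes list 5.0.1 and mm10 only. Intron and strand settings are not given in the sources used here, and genes on the opposite strand overlap Bmp4, Fst and Id4. The title of control 2 names Ccl19-Cre, and its genotype label (floxed Notch2 without Cre) was followed.

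Barcodes had to reach 500 genes and 1000 UMIs with mitochondrial UMIs of no more than 10% (7817 and 12754 Notch2 cKO, 9053 and 17014 control). They were gated by marker UMIs per 10000, at 30 for fibroblasts, 60 for the T-zone (Ccl21a), 40 for Cxcl9 and marginal and 20 for adventitial and medullary-type gates. Each gate needed at least 3 marker UMIs from 2 markers (1 for the T-zone). Cells of more than 1 lineage were left out as likely doublets, and those of more than 1 fibroblast gate were kept apart; no doublet caller was used. For duplicated symbols the row with the highest count was taken.

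Counts were summed per library and gate and tested with edgeR 4.0.16 in R 4.3.3 (quasi-likelihood, TMM, filterByExpr, Benjamini-Hochberg threshold 0.05), and a batch term; 1 degree of freedom remained for the residual. The labels say that replicate numbers mark batches, so numbers pair the libraries; deviations of same-batch libraries from their group means correlated at 0.148 (perivascular) to 0.835 over genes. Each library pools mice, so n is 2 libraries per group. The p-values use a spread between pools that edgeR estimated with information shared over genes, not from a gene's own libraries alone. Gates were compared with the library as a block. Within-batch values are differences of scaled log2 levels. Alternatives, DESeq2 1.42.0 among them, are described in the closing section. Fits were tested on simulated data.

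The members, lists and tests were chosen with earlier results of these data known, and the gate thresholds and the medullary-type and ungated comparisons after the data were seen. The interaction against the adventitial gate was planned, and those against the Cxcl9, marginal and medullary-type gates were added. The named genes were the 9 members, Notch2, listed pathway genes past the test and, for each member, the 3 most like it, of which 2 are not reported here. Positions came from GENCODE M21 (GRCm38) and promoters from RefSeq. Poisson and binomial intervals (95%, scipy 1.17.1) cover counting error only.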

Additional observations from a re-analysis of the deposited data

Results flagged for a closer look

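Several effects of genotype differed between gates by the interaction test, all in comparisons added to the planned one against adventitial-gated cells, where no member passed. The log2 effect on Bmp2 was higher in T-zone-gated than in medullary-type-gated cells by 1.33. The effects on Fst and Id4 differed in the same comparison by -1.01 and -0.72. Against Cxcl9-gated cells the T-zone effect differed by -1.20 for Bmp4 and -0.89 for Fst, and Fst itself passed the test in neither gate. T-zone levels of Fst were near those of leukocyte-gated cells. The sums of 1 library enter both sides of each difference, and n is 2 libraries per group.

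Signals above the control level also appeared in cells outside the comparisons, in batch 2 alone, with 1 library per group and no test. They are the members whose 95% Poisson interval in Notch2 cKO 2 lay above that in control 2. Members lower in Notch2 cKO 2 were not sought, so the list holds 1 direction only. In Schwann-gated cells, 62 in Notch2 cKO 2 and 75 in control 2, Sostdc1 had 1100 CPM in Notch2 cKO 2 (95% Poisson interval 958 to 1257) and 315 CPM in control 2 (247 to 396). Id1 had 148 CPM there in Notch2 cKO 2, from 29 UMIs, and 21.6 CPM in control 2, from 5 UMIs. In follicular dendritic-gated cells Sostdc1 had 134 CPM in Notch2 cKO 2 and 34.5 CPM in control 2, Id1 had 239 CPM in Notch2 cKO 2 and 172 CPM in control 2, and Fst had 36.2 CPM in Notch2 cKO 2 and 7.098 CPM in control 2. In leukocyte-gated cells Grem1 had 79.4 CPM in Notch2 cKO 2 and 43.3 CPM in control 2. Sostdc1 there had 34.9 CPM in Notch2 cKO 2 and 10.7 CPM in control 2, and Id1 had 35.6 CPM in Notch2 cKO 2 and 10.7 CPM in control 2. These intervals cover counting error within 1 library each.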

How the results depend on the processing

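The numbers of genes called depended on the batch term. Without it (no replicate block) 0 genes passed in the fibroblast, T-zone, adventitial, Cxcl9, marginal, medullary-type and ungated sets (448, 649, 65, 258, 190, 127 and 322 at an unadjusted edgeR p under 0.05) and 1 in the perivascular gate. Leaving out 1 library gave 0 to 9 calls in the fibroblast, 0 to 2 in the T-zone, 0 to 3 in the adventitial, 0 to 0 in the Cxcl9, medullary-type and ungated sets, 0 to 61 in the marginal and 0 to 16 in the perivascular gate.

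The fibroblast count of 427 became 127 by library totals (94 higher and 33 lower, against 262 and 165), 834 without the filter, 174 with the stricter cell filter, 244 without the 10% deepest cells, 282 and 261 with thresholds doubled and halved, and 15 without T-zone-gated cells. The T-zone count of 819 became 1452 without the filter and 526 with doubled thresholds. The adventitial count of 12 became 3 by RLE scaling and 0 by DESeq2, library totals, the stricter filter, without the deepest cells and with halved thresholds. The Cxcl9 count of 273 (169 higher and 104 lower) became 35 by DESeq2, and library totals split 291 calls into 214 and 77. The marginal count of 116 became 1 by DESeq2, 53 without the deepest cells and 30 with doubled thresholds. The perivascular count of 5 became 3 without the deepest cells and 0 and 8 with doubled and halved thresholds. The medullary-type count of 48 became 17 by DESeq2, 167 by library totals, 149 without the filter, 8 with the stricter cell filter and 15 with doubled thresholds. The ungated count of 254 became 962 without the filter, 157 without the deepest cells and 102 with halved thresholds. For gates against other fibroblasts, doubled thresholds gave 562 (Cxcl9, from 996), 1142 (marginal, from 2074) and 2019 (medullary-type, from 3272), and halved ones 1515 for Cxcl9. Library totals moved the median of all genes to 0.13 in the Cxcl9 and medullary-type, 0.11 in the marginal and 0.12 in the perivascular gate. The cause of these changes was not tested, except that fewer libraries or cells enter some fits.

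Signs of values short of the test turned in some settings. Fst turned to 0.0155 in fibroblast-gated cells without T-zone-gated cells, and to -0.55 in the Cxcl9 gate with doubled thresholds. Id1 in the Cxcl9 gate turned to 0.0863 by library totals. Leaving out 1 library, and with it the batch term, gave -0.80 to 0.27 for Id1 in fibroblast-gated cells. The same kind of fit gave -0.24 to 0.60 for Fst and -1.34 to 0.26 for Id1 in the Cxcl9 gate, and -0.0135 to 0.73 for Fst in the medullary-type gate. Against other fibroblasts, halved thresholds gave 0.18 for Sostdc1 (T-zone), 0.12 for Id1 (Cxcl9, a call that turned) and 0.0234 for Chrdl1 (adventitial), doubled ones -0.22 for Chrdl1 (Cxcl9), and library totals 0.0599 for Chrdl1 (marginal). The T-zone minus adventitial effect on Id1 became 0.59 with doubled thresholds. Bmp4 in the T-zone gate passed under 3 of 8 other settings with the batch term. Low counts limit Fst and Id4 in the T-zone gate and all members in the marginal and perivascular gates of batch 1.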
